A study of Gallus gallus with 6 samples.

Results

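Semaphorins, plexins, neuropilins, netrins, UNC5 receptors, slits, ROBO receptors, Eph receptors and ephrins are the ligands and receptors of the main guidance systems of moving cells and growing axons. They were taken by gene name, as every gene whose symbol in the authors' deposited comparison table begins with SEMA and a digit, PLXN, NRP1 or NRP2, NTN and a digit, UNC5, ROBO, SLIT and a digit, EPHA or EPHB and a digit, or EFNA or EFNB. The pattern matched 53 of 16963 genes, and 52 of them had at least 10 estimated counts over all libraries. The exception was UNC5D, a netrin receptor gene, with 6 counts. The 52 genes are 17 semaphorins, 6 plexins, 2 neuropilins, 3 netrins, 3 UNC5 receptors, 3 slits, 2 ROBO receptors, 11 Eph receptors, 4 ephrins and UNC50. UNC50 shares only the letters of its name with the UNC5 receptors. It is counted with the rest and described apart.

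Semaphorins signal through plexins on the receiving cell, and the secreted class 3 semaphorins do so mostly through neuropilins, which serve as co-receptors and also bind forms of VEGF. Netrins bind DCC, neogenin and UNC5 receptors, slits bind ROBO receptors, and ephrins, which are tethered to the membrane, bind Eph receptor tyrosine kinases on the neighbouring cell. All these systems act on the cytoskeleton and on adhesion, and besides axons they are known to steer vessels, leukocytes and tumour cells.

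The cells were ovarian adenocarcinoma cells of chickens, taken from ascites and grown in culture before total RNA was sequenced. There were 3 primary lines, C27, C29 and C30, which the labels number as replicates 1, 2 and 3. Each confluent, trypsin-dissociated culture was sorted by flow cytometry into cells with aldehyde dehydrogenase activity (ALDH+) and cells without it (ALDH-), a sort often used to enrich stem-like tumour cells. This gave 1 library per line and fraction, 3 ALDH+ and 3 ALDH-. All 6 come from cultured cells, and how the ALDH gate was set is not given in the sources used here.

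Libraries held 22170788 to 26747453 estimated counts. The guidance genes took 0.0663 to 0.106% of the counts of the ALDH- libraries and 0.113 to 0.167% of the ALDH+ libraries. Marker lists of several cell types were compared between the fractions, and the macrophage and leukocyte list moved most. The 15 measured macrophage and leukocyte markers, among them SPI1, CSF1R and PTPRC, summed to 5779 to 11200 CPM (counts relative to library size, scaled by TMM factors) in the ALDH- libraries and to 218.5 to 367.5 CPM in the ALDH+ libraries, and 14 of the 15 fell (edgeR, adjusted p under 0.05). The 12 fibroblast markers summed to 14210 to 37640 CPM in ALDH- and 21270 to 52100 CPM in ALDH+, and none of them passed that test, with 4 at an unadjusted p under 0.05 and 4 called with the line in the model. Of the epithelial markers, the keratin gene KRT7 was abundant (1434 ± 833 CPM in ALDH- and 2232 ± 1008 CPM in ALDH+; SD, n = 3), whereas EPCAM stood at 0.884 ± 0.853 and 0.992 ± 0.766 CPM. CDH1, the gene of E-cadherin, fell (20.5 ± 25.2 and 1.21 ± 0.42 CPM, log2 -4.08, adjusted p = 0.047), the keratin gene KRT18 rose with the block (42.8 ± 5.7 and 109 ± 48.9 CPM, adjusted p = 0.0224), and CLDN3 and ESRP1 had 0 to 6 counts per library. CDH1 stood at 7.87, 3.99 and 49.5 CPM in ALDH- C27, C29 and C30. Its call ended without ALDH- C30 (adjusted p = 0.0869) and without ALDH+ C27 (0.15), C29 (0.129) or C30 (0.111). Of 5 mesothelial markers 3 were tested, none was called without the block (1 at an unadjusted p under 0.05), and LRRN4 (141 ± 47.6 and 338 ± 123 CPM, adjusted p = 0.0163) and WT1 (18.7 ± 20 and 44.5 ± 29.1 CPM, adjusted p = 0.0331) rose with it. MSLN, the other tested marker, was level at 5.48 ± 1.79 and 5.61 ± 4.10 CPM (log2 0.04, adjusted p = 0.985). With the block its log2 change was -0.30 (adjusted p = 0.734). The part of these markers in the values of the guidance genes was not tested.

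Expression levels of the guidance genes spanned several orders of magnitude. On the TPM scale (a level corrected for transcript length and depth), 34 of the 52 genes had a mean of at least 1 over the 6 libraries and 15 a mean of at least 10. The receptor gene EPHA2 was highest, with a mean of 56.5 TPM, followed by NRP2 at 45.3, UNC50 at 44.6, the ephrin gene EFNB1 at 43.8 and SEMA3D at 35.4 TPM. Spread between libraries was wide within this order. EPHA2 alone ran from 23.8 TPM in ALDH- C27 to 160 TPM in ALDH+ C30, and its range overlapped those of the next 4 genes, so the order of the top 5 is not separated by their spread. At the other end PLXNA4 (0.0249 TPM), SEMA5A (0.0596 TPM) and SLIT1 (0.0777 TPM) were barely detected.

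**Figure D1:**
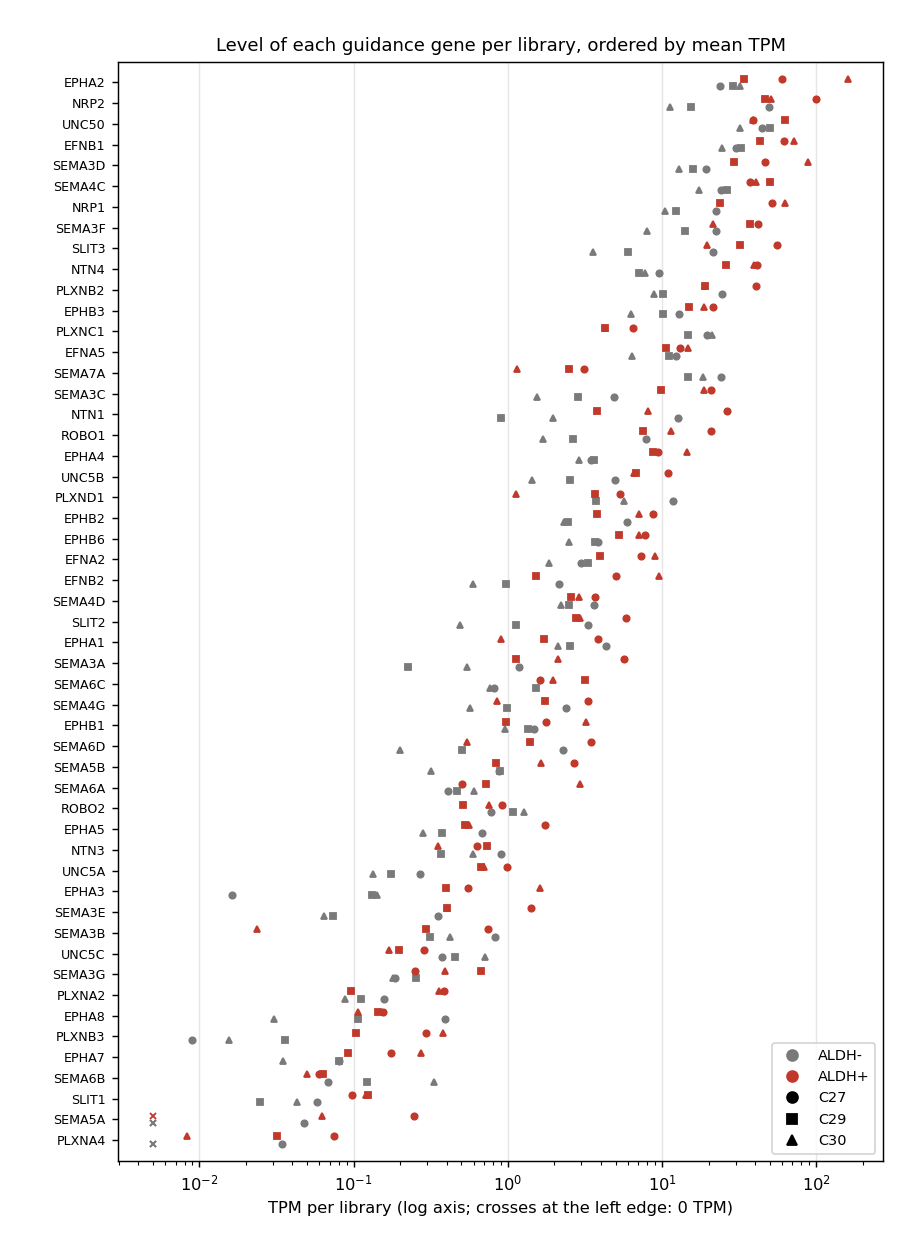
Level of each of the 52 genes (51 guidance genes and UNC50) in TPM, on a log axis, with 1 point per library, in grey for ALDH- and red for ALDH+, and a marker shape per line. Crosses at the left edge are libraries at 0 TPM. EPHA2, at the top, ranges from 23.8 to 160 TPM. The mean of the red points lies to the right of that of the grey ones for most genes, but the points of many genes overlap. All red points lie to the left of all grey ones for SEMA7A, PLXNC1, UNC5C and SEMA6B. Over all genes tested on log2 of TPM plus 1, the median log2 change was 0.36.

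The main question was which of these genes differ between ALDH+ and ALDH- cells. Without the line in the model, 4 genes rose in ALDH+ cells, the secreted ligands SEMA3C and NTN4 and the receptors EPHA4 and PLXNB3. Another 2 genes fell, SEMA7A and PLXNC1, a ligand known to bind PLXNC1 and that receptor itself. A filter on low counts left 46 of the 52 genes in the test. The genes that were not tested were EPHA7, EPHA8, PLXNA4, SEMA5A, SEMA6B and SLIT1, at 20 to 53 counts each. Over all 12811 genes tested, 0.835% were called higher and 5.3% lower, against 8.7% and 4.35% of the guidance genes. EPHA3 and PLXNB3 passed the filter through their ALDH+ libraries and reached its threshold in no ALDH- library, so they could be tested only because they were high in ALDH+. Of the ALDH- libraries, SEMA3E and UNC5A reached it in C27 alone and SEMA3G in C29 alone, so they needed ALDH+ libraries too. Next, genes that reached it in every library of 1 fraction and none of the other were left out. Of the 44 guidance genes that remained, SEMA3E, UNC5A and SEMA3G among them, 3 rose and 2 fell (6.82% and 4.55%). The shares of all genes were 0.791% and 4.73%. In bulk RNA, fewer cells of one kind and less RNA per cell cannot be told apart.

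Both fractions come from the same 3 lines. With the line as a block, 14 guidance genes rose and 2 fell (30.4% rose), where 5.92% of all genes rose and 7.61% fell. With the same genes left out, 12 of 44 rose (27.3%), SEMA3E among them, against 5.89% of all genes. The 10 genes that edgeR called only in this fit were SEMA3A, SEMA3D, SEMA3E, NRP1, NRP2, NTN1, UNC5B, SLIT3, ROBO1 and EPHA3. All 10 were higher in ALDH+ in 3 of 3 lines, but such a call favours genes with the same direction in every line. DESeq2 without the block called SEMA3D (adjusted p = 0.00982), NRP1 (0.0158), EPHA3 (0.0372) and UNC5B (0.0466) of the 10, and UNC5A (0.0348) besides. The number that rose with the block was 5, 16 and 8 when C27, C29 or C30 was left out. All-gene shares were not counted for these fits. Of the 16 called genes, 7 stayed called in all 3 of them, namely NRP2, NTN4, PLXNC1, ROBO1, SEMA3C, SEMA7A and SLIT3.

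The direction was shared widely. Of the 46 genes, 35 had a log2 change above 0 and the median was 0.75, against 50.2% of all genes and a median of 0.00. In all 3 lines 29 genes (63%) were higher in ALDH+, where 28.4% of all genes were. For 14 genes (30.4%) the lowest ALDH+ library exceeded the highest ALDH- library, against 11.2% of all genes. For 6 genes the ALDH+ libraries all lay below, against 14.6% of all genes. EPHA3 and PLXNB3, which passed the filter only through ALDH+, are among the 35, the 29 and the 14. So are SEMA3E and UNC5A, which also needed ALDH+ libraries to pass. SEMA3G, which needed them too, is among the 35 and the 29. These counts and shares were not redone without such genes. These values depend on scaling. When libraries were scaled so that the fibroblast markers had the same sum in each, the median over all genes shifted to -0.63. The guidance median shifted to 0.07, and 24 of the 46 genes stayed above 0. EdgeR without the line then called 0 higher (4 at an unadjusted p under 0.05) and 4 lower. With the line it called 6 higher and 9 lower. All-gene shares were not counted under this scaling. The sum it uses is mostly collagen. In ALDH- C27, COL1A1, COL1A2 and COL3A1 held 17080, 11310 and 7124 of 37640 CPM. Across lines the sum differed, and with TMM factors all 12 fibroblast markers had a log2 change above 0. The leukocyte markers took a far larger share of the ALDH- libraries, and their part in these directions was not tested.

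**Figure D2:**
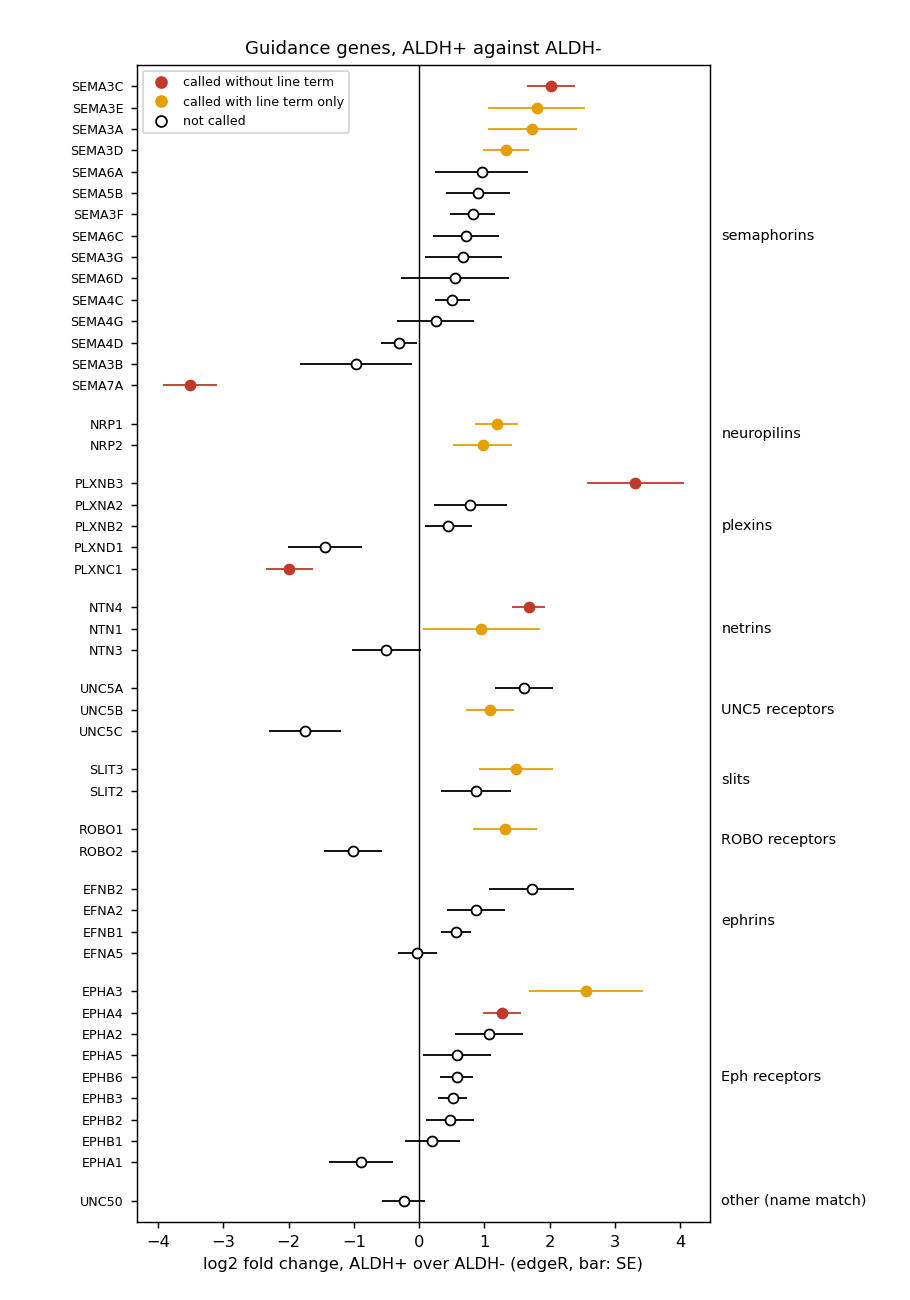
Log2 fold change of ALDH+ over ALDH- for the 46 tested genes, grouped by role, from edgeR without the line term; bars are standard errors. Red points are called in that fit, orange points only with the line as a block, and open points in neither. PLXNB3 lies farthest to the right at 3.32 and SEMA7A farthest to the left at -3.51. PLXNB3 and EPHA3 were tested only because they were high in ALDH+.

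Among the 17 semaphorins, 15 were tested. SEMA3C rose and SEMA7A fell, and with the block SEMA3A, SEMA3D and SEMA3E rose as well. All 4 semaphorins that rose belong to class 3, the secreted class that repels or attracts cells through neuropilins. SEMA3C (ENSGALG00000040444) is known for guiding neural crest cells into the outflow tract of the heart. In C27, C29 and C30 it stood at 8.18, 5.73 and 3.94 CPM in ALDH- cells and at 28.4, 16.9 and 27.5 CPM in ALDH+ cells. Every ALDH+ library lay above every ALDH- library, and the log2 change was 2.03 (SE 0.37, adjusted p = 0.0159). SEMA3C was no longer called when ALDH- C29 (adjusted p = 0.0694), ALDH- C30 (0.0542) or ALDH+ C27 (0.0645) was left out.

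SEMA7A (ENSGALG00000001412) encodes a GPI-anchored semaphorin that is found on lymphocytes and myeloid cells as well as on neurons, and it fell more than any other guidance gene tested. Its ALDH- libraries held 56.4, 41.6 and 64.9 CPM in C27, C29 and C30, and its ALDH+ libraries 5.94, 5.96 and 2.34 CPM. The groups were far apart (log2 -3.51, SE 0.42, adjusted p = 0.00248), and the call held without each library in turn (0.00391 to 0.0165). The leukocyte markers fell beside it, with SPI1 at a log2 change of -4.99, and their part in the fall of SEMA7A was not tested.

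**Figure D3:**
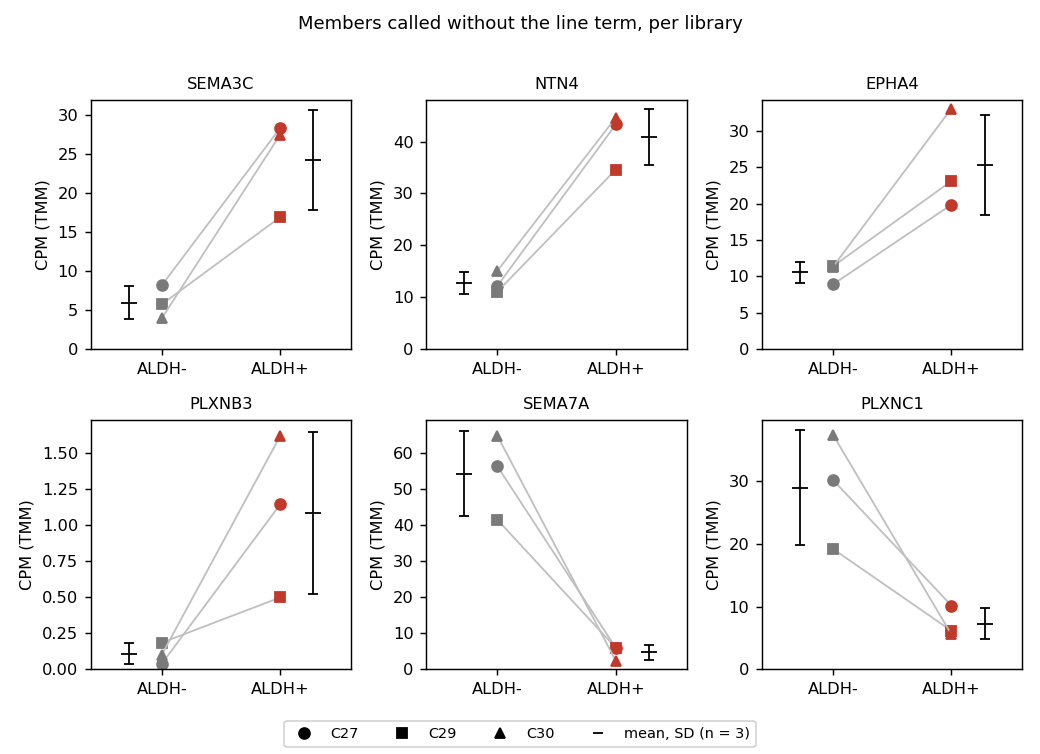
CPM of the 6 genes called without the line term, with 1 point per library, joined within a line, in ALDH- (grey) and ALDH+ (red) cells. Bars beside the points are means with SD (n = 3). SEMA3C, NTN4, EPHA4 and PLXNB3 are higher in every ALDH+ library than in any ALDH- library, and SEMA7A and PLXNC1 lower. PLXNB3 was tested only because it was high in ALDH+.

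The other class 3 genes included both abundant and scarce members. SEMA3D (ENSGALG00000006563), a gene active in neural crest and heart development, was nearly equal across the ALDH- libraries at 36.7, 36.5 and 37.6 CPM in C27, C29 and C30. In ALDH+ cells it reached 72, 57.8 and 149 CPM, with C30 apart from the others. The log2 change was 1.33 without the block (adjusted p = 0.0762) and 1.20 with it (SE 0.29, adjusted p = 0.0368). SEMA3A (ENSGALG00000006560), the classical repellent of axons, stood at 2.99, 0.688 and 2.09 CPM in ALDH- and 11.6, 2.93 and 4.68 CPM in ALDH+. The groups overlapped slightly, with ALDH- C27 just above ALDH+ C29, and SEMA3A rose by 1.72 with the block (SE 0.34, adjusted p = 0.0195; without it 0.202). SEMA3E (ENSGALG00000038225), the ligand that binds PLXND1 without a neuropilin, was scarce. It stood at 0.719, 0.184 and 0.199 CPM in ALDH- and 2.35, 0.858 and 0.726 CPM in ALDH+. It rose with the block (log2 1.87, SE 0.47, adjusted p = 0.0423, against 0.223 without it), but needed its ALDH+ libraries to pass the filter on counts.

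The remaining class 3 genes did not pass in either fit. SEMA3F, which acts mainly through NRP2, stood at 38.5 ± 11.7 CPM in ALDH- and 68.2 ± 23.4 CPM in ALDH+ (SD, n = 3; log2 0.82, adjusted p = 0.228, with the block 0.0516). SEMA3G was at 0.68 and SEMA3B at -0.97 on the log2 scale. SEMA3B had 42, 16 and 25 counts in ALDH- C27, C29 and C30 and 35, 13 and 1 in ALDH+. Of 8 tested membrane-bound semaphorins of classes 4 to 7, SEMA7A was the only 1 called, in either fit, and their median log2 change was 0.53 against 1.33 for the 7 of class 3; this difference was not tested. SEMA4C was the most abundant of them at a mean of 32.6 TPM and had a log2 change of 0.51 (adjusted p = 0.323), or -0.21 when scaled to fibroblast markers. SEMA4D, a semaphorin of lymphocytes that binds B-type plexins, was at 9.39 ± 0.91 and 7.57 ± 0.55 CPM, lower in every ALDH+ library than in any ALDH- library but not called (log2 -0.31, adjusted p = 0.565). On the TPM scale SEMA4D went the other way, with means of 2.76 in ALDH- and 3.04 in ALDH+ and the higher value in ALDH+ in each line. TPM ran higher in ALDH+ for genes at large, with an all-gene median log2 change of 0.36 on log2 of TPM plus 1. SEMA6A ran from 1.17 to 2.69 CPM in 5 libraries and stood at 7.67 CPM in ALDH+ C30. SEMA6B was not tested, with 5, 9 and 28 counts in ALDH- and 4, 4 and 3 counts in ALDH+ cells.

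Both neuropilins were abundant, and neither passed in edgeR without the block while both rose with it. NRP1 (ENSGALG00000007140), the co-receptor for SEMA3A and VEGF, stood at 67.9, 45.8 and 48.5 CPM in ALDH- and 128, 75 and 167 CPM in ALDH+ cells of C27, C29 and C30. Its groups did not overlap (log2 1.19, adjusted p = 0.0822; with the block 1.13, SE 0.26, adjusted p = 0.0318). NRP2 (ENSGALG00000008621) stood at 128, 48.7 and 45.2 CPM in ALDH- and 202, 122 and 111.5 CPM in ALDH+. The groups overlapped, since ALDH- C27 exceeded ALDH+ C29 and C30. Within lines ALDH+ was 1.58, 2.5 and 2.47 times ALDH-, and NRP2 rose with the block (log2 1.09, SE 0.22, adjusted p = 0.0219; without it 0.268).

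The plexins, the signalling receptors, went different ways. PLXNC1 (ENSGALG00000011309), the receptor for SEMA7A, fell from 30.2, 19.2 and 37.5 CPM in ALDH- to 10.2, 6.14 and 5.57 CPM in ALDH+ cells of C27, C29 and C30. The groups did not overlap (log2 -1.99, SE 0.37, adjusted p = 0.0171). PLXNC1 was no longer called when ALDH- C30 (adjusted p = 0.0854), ALDH+ C29 (0.0744) or ALDH+ C30 (0.058) was left out. PLXND1, the receptor for SEMA3E, was at 56.4, 21.6 and 40.8 CPM in ALDH- and 20.6, 18.2 and 4.76 CPM in ALDH+. It was lower in every ALDH+ library but did not pass (log2 -1.45, adjusted p = 0.197; with the block 0.0894). Leukocyte markers fell beside both, and their part in these values was not tested.

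PLXNB3 (ENSGALG00000006526), a B-type plexin that binds SEMA5A, had 1, 4 and 2 counts in ALDH- C27, C29 and C30 and 34, 11 and 40 counts in their ALDH+ counterparts. This is 0.107 ± 0.073 CPM against 1.08 ± 0.56 CPM, with no overlap (log2 3.32, SE 0.74, adjusted p = 0.0376). PLXNB3 reached the filter's threshold in no ALDH- library and was tested only because it was high in ALDH+, which limits these values. The call rested on all libraries, since leaving out any 1 gave adjusted p values from 0.0508 to 0.158, and limma-voom gave 0.0524. PLXNB2 was the most abundant plexin, at a mean of 20.3 TPM, and averaged 64.8 ± 26 CPM in ALDH- against 88.3 ± 32.7 CPM in ALDH+ (log2 0.45, adjusted p = 0.523, and -0.19 when scaled to fibroblast markers). PLXNA2 was at 0.58 and 1.00 CPM on average and did not pass (adjusted p = 0.465), and PLXNA4 had 20 counts in all.

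Of the netrins, NTN4 (ENSGALG00000011406), a secreted netrin of basement membranes that binds laminin, rose. Its ALDH- libraries stood at 12.2, 11.1 and 15.1 CPM and its ALDH+ libraries at 43.3, 34.6 and 44.6 CPM in C27, C29 and C30, with no overlap. ALDH+ was 3.55, 3.13 and 2.96 times ALDH- within the lines (log2 1.68, SE 0.25, adjusted p = 0.00644), and the call held without each library in turn (0.0177 to 0.0383). NTN1 (ENSGALG00000023626), the chemoattractant of commissural axons, differed between lines. It stood at 25, 2.16 and 5.88 CPM in ALDH- and 42.4, 7.67 and 14.1 CPM in ALDH+, so the groups overlapped widely, and it rose only with the block (log2 1.26, SE 0.28, adjusted p = 0.0284; without it 0.587). NTN3 was scarce and did not pass (log2 -0.50, adjusted p = 0.627).

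The UNC5 receptors, which mediate repulsion by netrins, split by member. UNC5B (ENSGALG00000004569), the form best known from blood vessels, stood at 12.1, 7.48 and 5.38 CPM in ALDH- and 21.6, 17.2 and 14.1 CPM in ALDH+ cells of C27, C29 and C30. The groups did not overlap, and it rose with the block (log2 1.14, SE 0.25, adjusted p = 0.0265; without it 0.144). UNC5A was low, at 0.447 ± 0.072 and 1.38 ± 0.18 CPM, with ratios of 2.98, 3.28 and 3.04 in the 3 lines. It needed its ALDH+ libraries to pass the filter on counts. It missed the threshold in both edgeR fits (adjusted p = 0.0816 and 0.0516) and was called by DESeq2 without the block (0.0348). UNC5C went the other way, at 1.63 ± 0.9 and 0.477 ± 0.105 CPM without overlap, and did not pass either (log2 -1.75, adjusted p = 0.122 and with the block 0.0971).

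Slits and their receptors were next. SLIT3 (ENSGALG00000001916), a large secreted ROBO ligand, stood at 75.5, 25.6 and 18.9 CPM in ALDH- and 159.6, 116.5 and 60.3 CPM in ALDH+ cells of C27, C29 and C30. ALDH- C27 exceeded ALDH+ C30, so the groups overlapped, while within lines ALDH+ was 2.11, 4.55 and 3.19 times ALDH-. SLIT3 rose with the block (log2 1.65, SE 0.26, adjusted p = 0.0086; without it 0.189). SLIT2 was lower, at 8.56 ± 6.34 and 15.7 ± 5.05 CPM, and did not pass (with the block adjusted p = 0.0667). SLIT1 had 52 counts in all and was not tested.

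The receptor gene ROBO1 (ENSGALG00000015511) stood at 30.3, 12.1 and 9.62 CPM in ALDH- and 63.3, 28.4 and 38.3 CPM in ALDH+. It was 2.09, 2.36 and 3.98 times higher in ALDH+ within C27, C29 and C30 and rose with the block (log2 1.42, SE 0.26, adjusted p = 0.0149; without it 0.182). ROBO2, its close relative, stood at 2.27, 3.72 and 5.38 CPM in ALDH- and 2.18, 1.58 and 1.82 CPM in ALDH+, lower in every ALDH+ library but not called, with a log2 change of -1.02 (adjusted p = 0.245). The difference between ROBO1 and ROBO2 in their change was not tested.

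**Figure D4:**
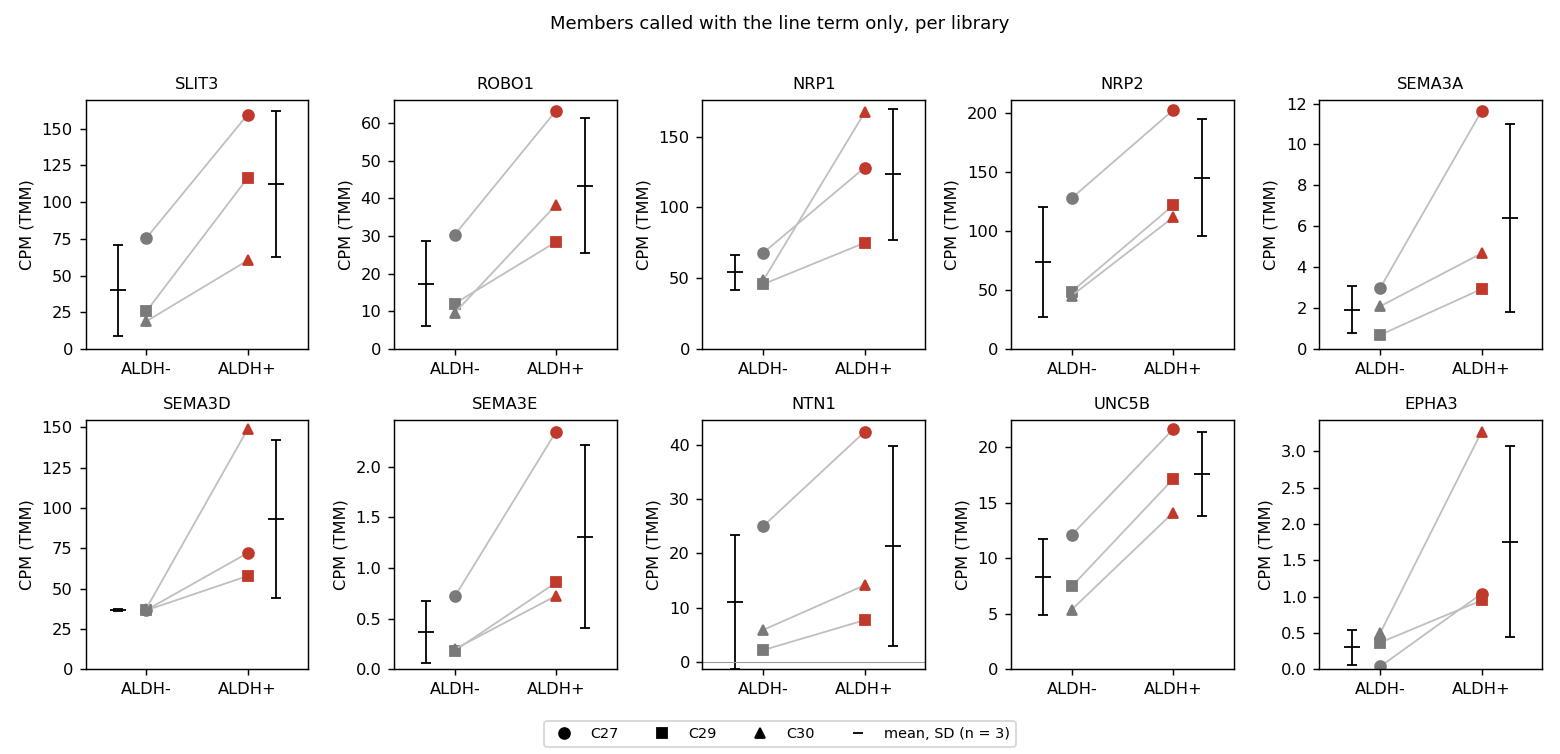
CPM of the 10 genes that edgeR called only with the line as a block. Each library is 1 point, joined within a line, with means and SD (n = 3) beside the points. All lines slope upward from ALDH- (grey) to ALDH+ (red), a pattern that a call with the block favours. For SLIT3, ROBO1, NRP2, SEMA3A, SEMA3E, NTN1 and UNC5B C27 (circles) is the highest line in both fractions.

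Of the 11 Eph receptors, 9 were tested. EPHA4 (ENSGALG00000005256), a receptor that binds ephrins of both the A and the B type, rose. It stood at 8.89, 11.4 and 11.3 CPM in ALDH- and 19.9, 23.1 and 33.1 CPM in ALDH+ cells of C27, C29 and C30, with no overlap (log2 1.27, SE 0.29, adjusted p = 0.0405). Its call ended whichever library was left out (adjusted p from 0.0633 to 0.122). EPHA3 (ENSGALG00000015403), a receptor for ephrin-A5, had 1, 8 and 10 counts in ALDH- and 31, 21 and 81 counts in ALDH+. EdgeR called it with the block only (log2 2.59, SE 0.63, adjusted p = 0.0385, against 0.146 without it). DESeq2 called it without the block (0.0372). It reached the filter's threshold in no ALDH- library and was tested only because it was high in ALDH+.

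EPHA2, the guidance gene with the highest mean TPM and a receptor often raised in carcinomas, was uneven over the lines. It stood at 66.5, 97.3 and 135 CPM in ALDH- and 137, 97.2 and 393 CPM in ALDH+ cells of C27, C29 and C30. In C29 the fractions were level, with a ratio of 0.999, while in C30 ALDH+ was 2.91 times ALDH-, and it did not pass (log2 1.07, SE 0.53, adjusted p = 0.3; with the block 0.118). Without ALDH+ C30 its log2 change was 0.25. With the block, EPHA2 was called by edgeR when C29 was left out (adjusted p = 0.00579). With the block and all lines it was called in DESeq2 (0.0438) and by limma on log2 TPM (0.00769). Without the block neither DESeq2 (adjusted p = 0.208) nor limma on log2 TPM (0.142) called it. The EphB receptors EPHB1, EPHB2, EPHB3 and EPHB6 had log2 changes from 0.20 to 0.57, none called in either fit (0 at an unadjusted p under 0.05 in edgeR without the block), and with fibroblast scaling 0 of the 4 stayed above 0. EPHB3 was the most abundant of these, at 29.1 ± 4.48 and 41.6 ± 2.45 CPM without overlap (adjusted p = 0.25). EPHA1 was lower in ALDH+ in each line, at 9.93 ± 1.97 and 5.34 ± 3.32 CPM (log2 -0.89, adjusted p = 0.356).

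None of the 4 ephrins was called by edgeR in either fit, with 2 at an unadjusted p under 0.05 without the block. EFNB1 (ENSGALG00000036539), a transmembrane ephrin, was abundant at 46.7 ± 6.35 and 69.3 ± 12.4 CPM, without overlap (log2 0.57, adjusted p = 0.213, with the block 0.127, and log2 -0.04 when scaled to fibroblast markers). EFNB2, a ligand of arterial vessels, ran from 1.30 to 3.10 CPM in ALDH- and stood at 5.87, 2.26 and 12.2 CPM in ALDH+ cells of C27, C29 and C30. Its ALDH+ to ALDH- ratio was 9.38 in C30 and 1.33 in C29 (log2 1.73, SE 0.65, adjusted p = 0.183). EFNA5 was level at 7.88 ± 1.24 and 7.74 ± 0.89 CPM (log2 -0.03, SE 0.30, adjusted p = 0.97, with the sign turning under most other scalings), and EFNA2 stood at 1.19 ± 0.24 and 2.19 ± 0.71 CPM (adjusted p = 0.314). DESeq2 without the block called none either, with EFNB2 closest (adjusted p = 0.0508).

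UNC50, which is no guidance gene, was at 32.8 ± 5.45 and 27.8 ± 11.7 CPM and did not pass (log2 -0.24, adjusted p = 0.722).

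Genes that act in or beside these pathways were taken from lists of receptors, further ligands, adaptors and cytoskeletal effectors. Of 57 that the files name, 52 were tested, 2 rose and 3 fell, and with the block 14 rose and 3 fell, with a median log2 change of 0.72. Without the block 3.85% of the partners rose and 5.77% fell, against 0.835% and 5.3% of all genes, so the share that fell was near the background. With the block 26.9% rose and 5.77% fell, against 5.92% and 7.61% of all genes. The cytoskeletal genes ENAH and MICAL2 rose. ENAH, an actin regulator of the Ena/VASP family that acts below ROBO receptors, stood at 85.7 ± 12.3 CPM in ALDH- and 245 ± 58.4 CPM in ALDH+ (log2 1.52, adjusted p = 0.0113), and MICAL2, an actin-oxidising enzyme, at 16.2 ± 2.08 and 53.7 ± 22.8 CPM (log2 1.73, adjusted p = 0.0248). The kinase gene FES, which acts below plexins and is abundant in myeloid cells, stood at 109 ± 72.4 CPM in ALDH- and 2.21 ± 1.15 CPM in ALDH+ and fell (log2 -5.62, adjusted p = 0.00203). VAV3, an exchange factor used by Eph receptors and by leukocytes, fell by 3.02 on the log2 scale (adjusted p = 0.0197), and DRAXIN, a secreted protein that binds netrin receptors, by 2.91 (adjusted p = 0.0135). Leukocyte markers fell beside these 3 genes, and their part was not tested. Of the 5 called partners, FES alone stayed called whichever library was left out (adjusted p up to 0.0132).

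By pathway, with the block, 5 of 19 tested partners of semaphorins rose and 1 fell, where 5.92% of all genes rose and 7.61% fell. DPYSL5, among these 5, had 8, 7 and 24 counts in ALDH- C27, C29 and C30 and 39, 16 and 106 in ALDH+. Of the ALDH- libraries it reached the filter's threshold in C30 alone, so it needed ALDH+ libraries to pass. The counts and shares of partners, here and above, were not redone without DPYSL5. On the netrin list 4 of 10 tested genes rose, namely the netrin-G genes NTNG1 and NTNG2, DOCK1 and PTK2, and 1 fell. The netrin receptor gene DCC was on the written list, but no gene in the data carries that name. Of 11 partners of slits 4 rose, and of 12 partners of ephrins 1 rose and 1 fell. The number of partners that rose with the block was 3, 17 and 6 when C27, C29 or C30 was left out, and all-gene shares were not counted there.

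The lines were compared with the fraction held in the model (F test on the 2 line terms). NTN1 was the only guidance gene that passed (adjusted p = 0.0453), where 0.367% of all genes did. C27 held the most NTN1 and C29 the least in both fractions. This call ended with DESeq2 size factors in edgeR (adjusted p = 0.055), on unfiltered log2 TPM (0.1005), without either C27 library (0.119 and 0.0624) and without the line C27 (0.472). At an unadjusted p under 0.05, 15 of the 46 genes (32.6%) differed between lines, against 19.9% of all genes. The next smallest p values belonged to SEMA6D, SLIT3, NRP2 and SEMA3A (adjusted p from 0.0825 to 0.123). SEMA6D, a transmembrane semaphorin, stood at 5.79, 1.56 and 0.797 CPM in ALDH- and 7.11, 3.61 and 1.25 CPM in ALDH+ cells of C27, C29 and C30. C27 was the highest line in both fractions for 21 of the 46 genes (45.7%), where this held for 21% of all genes, and C29 and C30 were highest in both for 4 and 5. Fibroblast markers also differed between lines, with 8 of 12 at an unadjusted p under 0.05. Their part in the differences between lines was not tested.

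Transcripts add detail for a few genes, since 30 of the 53 matched genes have more than 1 in the files. The authors' deposited table gives 12 transcripts of these genes with a false discovery rate under 0.05, 7 higher and 5 lower in ALDH+, out of 79 transcripts with such a value. Over all transcripts in the authors' deposited table, 3.15% were higher and 5.97% lower by this measure. A separate adjusted p in the authors' deposited table is stricter and falls under 0.05 for 4 transcripts of these genes, those of NTN4 and SEMA3C (higher) and of PLXNC1 and SEMA7A (lower), out of 96; over all transcripts the shares are 0.213% and 2.18%. How the authors made these 2 columns is not given in the sources used here. NRP2 was divided between 2 transcripts. ENSGALT00000075635 made up 48.6, 41.8 and 37.8% of NRP2 TPM in ALDH- C27, C29 and C30 and 64.3, 55.5 and 63.8% in ALDH+, so its share was higher in every ALDH+ library. The difference in this share was not tested.

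ROBO2 and SEMA4G were scarce genes whose transcripts went different ways. The ROBO2 transcript ENSGALT00000095463 was listed at 0 TPM in ALDH- C27, C29 and C30 and at 0.31, 0.438 and 0.234 TPM in ALDH+. ROBO2 as a whole was lower in every ALDH+ library by CPM, though not called. Its summed TPM overlapped, at 0.778, 1.09 and 1.27 in ALDH- and 0.915, 0.515 and 0.758 in ALDH+. The SEMA4G transcript ENSGALT00000094391 was at 0.511, 0.17 and 0.225 TPM in ALDH- and listed at 0 in ALDH+. In the authors' deposited table both have a false discovery rate under 0.05 (0.0029 and 0.0199) but an adjusted p of 1. A value of 0 here is an estimate of how shared reads were divided among transcripts, and at these levels it does not show that a transcript was absent.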

How the data were processed

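Total RNA gave 6 libraries of paired-end reads of 125 bases, per the series' design text. The submitters' processing notes name FastQC, Trimmomatic, HISAT2, kallisto, DESeq2 and the build GRCg6a, without versions or roles. Per transcript, the deposited files give expected (estimated) counts and TPM. Their deposited comparison table holds a signal (estimated count over a size factor), a fold ratio, log2 fold changes, p-values, a Wald score and, per the file headers, other values such as transcript length.

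Estimated counts of 28756 transcripts were summed to 16963 genes by deposited gene ID and rounded. Transcripts without a gene ID (319) held 0.285 to 0.328% of counts and were left out. Reads shared by paralogs cannot be traced, and strand handling is not given in the sources used here. No gene position or sequence is given, because the table at hand is of another build.

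Fractions were compared by the quasi-likelihood test of edgeR 4.0.16 under R 4.3.3 (TMM scaling, filterByExpr with minimum count 10 and minimum total 15), two-sided, Benjamini-Hochberg over 12811 genes, threshold 0.05. Errors of log2 changes are standard errors and ± is the SD (n = 3). The comparison of lines used an F test of the line terms. Code was tested on simulated data. Alternatives used DESeq2 1.42.0, limma 3.58.1 (voom, or log2 of TPM plus 1 or 0.1), other scalings and filters, and fits without each library or line.

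Both fractions of a line come from the same primary line, which pairs the samples. Deviations from group means correlated at r = 0.661, 0.165 and 0.487 within C27, C29 and C30, and at -0.54 to 0.166 between lines, where ALDH- C29 matched ALDH+ C30 (0.166) as closely as its own line. The labels name the lines separately and each was taken as 1 replicate. Without the block, p-values rest on the spread between the libraries of a fraction. With the block, they rest on the spread of the differences within lines. In both, the estimate of spread also borrows from other genes.

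The genes, partner and marker lists were chosen with earlier results of these data known. Named genes are those called in either fit, the 2 highest by TPM in each role, the 5 with the smallest line p, and called partners. Others were chosen after their values were seen, as were the block fits with other scalings, units or tests and the counts without genes that passed the filter through 1 fraction.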

Additional observations from a re-analysis of the deposited data

Results flagged for a closer look

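In EPHB1, an EphB receptor gene, the lines moved in opposite directions by at least 1.5-fold. The ALDH+ over ALDH- ratio of CPM was 0.617 in C29 and 1.93 in C30, and 0.972 in C27. NTN3, a scarce netrin gene with 13 to 41 counts per library, had ratios of 0.584 in C27, 1.68 in C29 and 0.34 in C30. Each line has 1 library per fraction, so these differences between lines were not tested.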

How the results depend on the processing

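Guidance genes that rose (4) numbered 14 with the replicate block. With the block they numbered 12, SEMA3E among them, without genes that reached the filter's threshold in 1 fraction alone. Without the block they numbered 9 with DESeq2, 2 with limma-voom or unfiltered log2 TPM and 0 when scaled to fibroblast markers. The last also gave 4 that fell in place of 2. The block gave 16 with DESeq2 size factors, 17 by upper quartile or library size, 21 on log2 TPM, 18 in DESeq2 and 6 with fibroblast scaling, the last with 9 that fell. Shares over all genes were counted only for edgeR with TMM factors on all 6 libraries. The other settings in this paragraph have no such share. Without the block, the all-gene median log2 change was 0.36 on log2 TPM, 0.18 with library size only and -0.63 with fibroblast scaling. Whether counts under these settings moved with genes at large was not tested. Leaving out 1 library gave 1 to 6 that rose and 1 or 2 that fell; with the block, leaving out a line gave 5 to 16 and 2 or 3. Partners that rose (2) numbered 14 with the block, 8 with DESeq2, 5 on log2 TPM with either pseudocount, 3 with limma-voom, other factors or the total count filter, and 0 with fibroblast scaling (edgeR; 0 at an unadjusted p under 0.05). The block gave 14, 17, 18, 30, 19 and 0 partners by DESeq2 size factors, upper quartile, library size, log2 TPM, DESeq2 and fibroblast scaling, the last with 6 that fell. Partners that fell (3) numbered 1 on unfiltered log2 TPM. Without 1 library, 0 to 7 partners rose and 1 to 3 fell; with the block and without a line, 3 to 17 and 3 to 5. Genes that differed between lines (1) numbered 10 with DESeq2, 7 and 6 on log2 TPM plus 1 and 0.1, 0 unfiltered or with DESeq2 size factors, 3 with library size only and 25 with fibroblast scaling; leaving out a library gave 0 to 10 and leaving out a line 0 to 13.

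Some uncalled log2 changes turned sign. EFNA5 (-0.03) was 0.00751 in DESeq2, 0.378 and 0.413 on log2 TPM plus 1 and 0.1 (0.378 unfiltered), 0.0153 with DESeq2 size factors, 0.0159 with the total count filter, 0.0867 with upper quartile factors, 0.138 with library size alone and -0.108 to 0.0713 without 1 library. With the block it was 0.0188 with DESeq2 size factors, 0.0957 by upper quartile, 0.157 by library size, 0.378 on log2 TPM, 0.0115 in DESeq2, and 0.0935 and 0.110 without C27 and C29. Fibroblast scaling, without and with the block, gave EFNB1 -0.0370 and -0.0954, EPHB3 -0.0652 and -0.138, PLXNB2 -0.19 and -0.21 and SEMA4C -0.21 and -0.18. UNC50 was 0.13 on log2 TPM with any pseudocount, filter or block. NTN1 ran from -0.0123 without ALDH+ C27 to 2.47 without ALDH- C27, and SEMA6D from -0.16 to 1.81 in the same fits. The cause was not tested. With 3 lines, depth limits the scarce genes, such as PLXNB3, EPHA3, SEMA3E and UNC5A, which had counts under 10 in some libraries.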

Other observations

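Guidance genes are best known from neurons and blood vessels, and markers of both were looked up. Of 12 neural and glial markers, 6 were tested, and 0 were called by edgeR without the block (2 at an unadjusted p under 0.05); their sum was 17.7 to 25 CPM in ALDH- and 22.2 to 56.2 CPM in ALDH+. STMN2 and SOX10, which define neurons and glia, had 0 counts in all ALDH- libraries and 0 to 2 counts in each ALDH+ library. With the block GAP43, a growth cone gene, rose (8.79 ± 2.24 and 18.7 ± 7.57 CPM, adjusted p = 0.0323) and MBP, a myelin gene, fell (5.36 ± 1.65 and 1.32 ± 0.73 CPM, adjusted p = 0.0254). TUBB3, a tubulin gene of neurons, stood at 4.16 ± 2.44 and 10.8 ± 9.73 CPM and was not called in either fit. Of 10 endothelial markers, 5 were tested. All 10 summed to 103.9 to 168.4 CPM in ALDH- and 78.5 to 103.5 CPM in ALDH+. Within this sum PECAM1 averaged 82.7 ± 40.2 and 10.4 ± 4.64 CPM. EGFL7 stood at 2.36 ± 0.44 and 1.35 ± 0.40 CPM without overlap and was not called by edgeR (adjusted p = 0.343, with the block 0.168). CDH5 and KDR, which define endothelium, averaged 0.0765 and 0.0292 CPM in ALDH- and 0.235 and 0.139 CPM in ALDH+, while FLT1, a VEGF receptor gene, rose from 18.8 ± 2.52 to 37.4 ± 3.41 CPM (edgeR log2 0.99, SE 0.23, adjusted p = 0.0455) and PECAM1, which leukocytes also express, fell by 2.98 on the log2 scale (adjusted p = 0.00691). FLT1 was no longer called in any of the 6 fits that left out a library (adjusted p from 0.0553 to 0.158). ERG, an endothelial transcription factor gene, stood at 11.1 ± 1.03 and 27.7 ± 12.1 CPM without overlap and rose with the block (adjusted p = 0.0251; without it 0.0687), and CLDN5 stood at 9.82 ± 6.69 and 10.4 ± 2.92 CPM.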
